A study of Homo sapiens with 8 samples.

Results

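The genes described here are 28 genes of cholesterol and fatty acid synthesis and of their control, among the 60286 gene rows of a single-cell RNA-seq matrix of human neural cultures. They were listed by name, and all 28 are rows of the matrix. By role they are 7 genes of the early mevalonate route (ACAT2, HMGCS1, MVK, PMVK, MVD, IDI1 and FDPS), 3 genes from squalene to lanosterol (FDFT1, SQLE and LSS) and 8 genes from lanosterol to cholesterol (CYP51A1, TM7SF2, MSMO1, NSDHL, HSD17B7, EBP, SC5D and DHCR7). The other 2 groups are 4 genes of control and transport (SREBF1, SREBF2, INSIG1 and STARD4) and 6 genes of fatty acid synthesis and desaturation (ACACA, FASN, ELOVL6, SCD, FADS1 and FADS2).

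Cells make cholesterol from acetyl-CoA through mevalonate, isoprenoid diphosphates, squalene and lanosterol. The transcription factors encoded by SREBF2 and SREBF1 are held in the endoplasmic reticulum membrane while sterols are plentiful and are released to the nucleus when sterols run low, SREBF2 acting mainly on the sterol genes and SREBF1 mainly on the fatty acid genes. Cholesterol does not cross the blood-brain barrier in quantity, so neural tissue makes its own, and growing membranes of dividing and elongating cells draw on both routes.

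The cultures were all grown from the human embryonic stem cell line H1, which is established and of 1 genotype. The study profiled flat (2-D) and three-dimensional (3-D) neural cultures and their responses to dopamine, cocaine and morphine by split-pool barcoding, in which fixed cells receive their barcodes over several rounds of pooling and splitting. The 8 labelled samples are portions (sublibraries) of 1 pool of cells, and the culture each cell came from is given by a tag in its name. There were 46 culture tags in 9 arrangements: 2DMono (6 tags), 3DMono (6), 2DCocu (12), 3DFusi (10), 2DProto2Fjo, 2DProto3Wu and 2DProto4Nic (2 each), and 3DProto1For and 3DProto2Xia (3 each). The Mono tags were split into AcDop, AcMor and Vehic with 2 tags of each in 2-D and in 3-D. The 2DCocu tags were 4 AcCoc, 4 AcMor and 4 Vehic, the 3DFusi tags 4 AcCoc, 3 AcMor and 3 Vehic, and the Proto tags carried no treatment. The sources used here do not spell out the tags, the ages of the cultures or whether tags of a group were separate cultures, so p-values measure the spread between tags, which may be technical. Papain dissociation is described for the 3-D cultures only.

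The matrix held 43693 cells, each with 1006 detected genes or more and a mitochondrial share under 10%. Tags held between 317 and 1959 cells and between 3624668 and 58777177 counts, and the median cell had 12776 counts. Of 41192 distinct cell barcodes, 2393 occurred in more than 1 sublibrary, every time with the same tag. The Vehic tag 1 of 2DMono stood apart from the other 5 tags of its arrangement, with the most cells and counts of all 46 tags and a mean mitochondrial share of 4.42% against 2.14% to 2.84%. Between the 8 sublibraries the level of a member had a coefficient of variation of 0.67% to 8.82%, so the portions of the pool differed little beside the tags. Sums over a tag cannot tell fewer cells of a type from less RNA per cell. The neural label was checked by clustering, in which cells with neuron, progenitor, choroid plexus, ciliated, mesenchymal and muscle markers were found.

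Tag levels are given as CPM (counts scaled to a common library total) after 1 trimmed-mean (TMM) scaling over all 46 tags. Levels in cell classes had a TMM scaling of their own in each class comparison, and cluster levels are of pooled cells. CPM of tags, classes and clusters are therefore not on 1 scale. None is divided by transcript length, so levels are never compared between genes. Over the 46 tags the ratio of the highest to the lowest level ran from 2.18 for SC5D to 8.61 for FASN, and SREBF1 (5.85) and DHCR7 (5.06) followed FASN. HMGCS1, which makes HMG-CoA for the mevalonate route, had arrangement means of 100, 122, 127, 158 and 158 CPM in 2DMono, 2DCocu, 2DProto3Wu, 2DProto4Nic and 2DProto2Fjo. Its means in the 3-D arrangements were 211 CPM in 3DFusi, 217 in 3DProto1For, 231 in 3DMono and 246 in 3DProto2Xia. All 4 3-D means were above all 5 2-D means, while neighbouring arrangements in this order had overlapping tags. IDI1, the isomerase that balances the isoprenoid building blocks, showed the same division more sharply, with 2-D means of 22.3 to 29.7 CPM and 3-D means of 49.0 to 50.8 CPM. The lowest 3DFusi tag, at 25.2 CPM, was inside the 2-D range. INSIG1, which retains the SREBP proteins in the endoplasmic reticulum, had 2-D means of 14.98 (2DProto3Wu) to 32.0 CPM (2DCocu) and 3-D means of 36.9 (3DFusi) to 45.7 CPM (3DProto2Xia). SREBF1 did not divide by format: its highest means were 62.1 CPM in 2DCocu and 51.9 in 2DMono, and its lowest were 20.7 in 2DProto3Wu and 21.3 in 3DProto2Xia. Reads of HSD17B7, FDPS, IDI1, SCD and MSMO1 may be shared with pseudogene copies and those of INSIG1 and SREBF2 with antisense or divergent transcripts, and values of these 7 genes are uncertain to that extent, because no source states how strand was used.

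**Figure D1:**
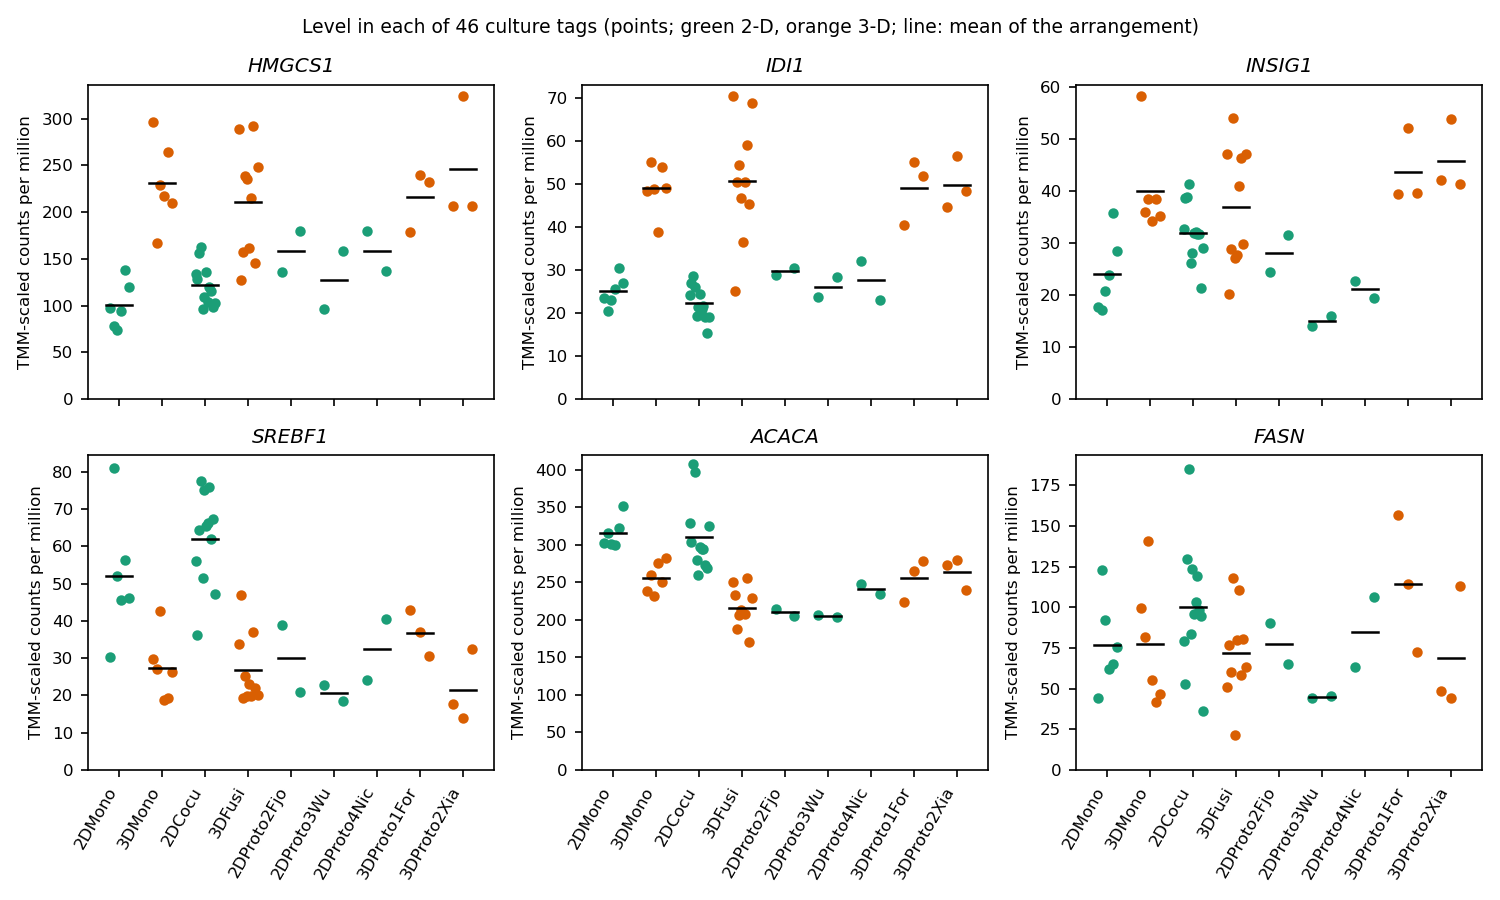
Level of HMGCS1, IDI1, INSIG1, SREBF1, ACACA and FASN in each of the 46 tags (points, TMM-scaled CPM on linear axes from 0; green 2-D, orange 3-D; line, mean of the arrangement). The HMGCS1 and IDI1 means of all 4 3-D arrangements lie above those of all 5 2-D arrangements, SREBF1 is highest in 2DCocu and 2DMono, and FASN spreads widely within arrangements.

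The 250 bases before the start sites of 5 members are shown because HMGCS1 and IDI1 passed the test in all 3 format comparisons below, because these 2 with MSMO1 and SC5D are the 4 that passed under AcCoc, and because SREBF2 encodes the factor of this route. They are RefSeq sequence on GRCh38.p14, written 5′ to 3′ along the gene. HMGCS1 is on chromosome 5 (43313413 to 43313662, minus strand), IDI1 on chromosome 10 (1056705 to 1056954, minus strand), MSMO1 on chromosome 4 (165327419 to 165327668, plus strand), SC5D on chromosome 11 (121292521 to 121292770, plus strand) and SREBF2 on chromosome 22 (41832855 to 41833104, plus strand). Capitals mark the sterol regulatory element searched as TCACNCCAC and the CCAAT box, each on either strand, so that a CCAAT box on the other strand reads ATTGG.
HMGCS1: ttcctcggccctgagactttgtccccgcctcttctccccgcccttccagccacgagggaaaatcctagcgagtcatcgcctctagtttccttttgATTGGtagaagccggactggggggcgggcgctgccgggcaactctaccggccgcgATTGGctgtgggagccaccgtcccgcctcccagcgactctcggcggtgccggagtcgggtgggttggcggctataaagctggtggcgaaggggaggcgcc
IDI1: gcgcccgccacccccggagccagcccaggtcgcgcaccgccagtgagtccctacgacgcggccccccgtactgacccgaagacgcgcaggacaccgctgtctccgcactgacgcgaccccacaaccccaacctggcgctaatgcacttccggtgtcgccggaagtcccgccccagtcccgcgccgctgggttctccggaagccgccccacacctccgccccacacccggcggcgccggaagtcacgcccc
MSMO1: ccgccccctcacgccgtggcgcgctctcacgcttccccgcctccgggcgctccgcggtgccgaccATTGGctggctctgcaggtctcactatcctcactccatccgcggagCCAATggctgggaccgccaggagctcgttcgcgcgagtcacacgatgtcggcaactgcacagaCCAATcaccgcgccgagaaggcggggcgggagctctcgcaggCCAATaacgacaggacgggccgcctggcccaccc
SC5D: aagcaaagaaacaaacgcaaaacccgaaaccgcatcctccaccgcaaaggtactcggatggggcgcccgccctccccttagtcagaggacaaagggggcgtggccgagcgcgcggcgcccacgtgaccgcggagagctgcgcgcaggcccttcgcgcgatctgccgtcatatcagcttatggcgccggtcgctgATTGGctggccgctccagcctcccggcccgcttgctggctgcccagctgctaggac
SREBF2: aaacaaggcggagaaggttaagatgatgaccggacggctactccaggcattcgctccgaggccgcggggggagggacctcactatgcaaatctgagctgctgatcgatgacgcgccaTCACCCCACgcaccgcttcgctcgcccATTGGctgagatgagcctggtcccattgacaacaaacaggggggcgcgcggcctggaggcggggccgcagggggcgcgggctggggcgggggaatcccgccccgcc
The SREBF2 window held 1 sterol regulatory element and 1 CCAAT box, HMGCS1 held 2 CCAAT boxes, MSMO1 held 4, SC5D held 1, and IDI1 held neither motif.

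Over the 300 bases from 250 before to 50 after the start, 24 of the 28 members had a RefSeq window, and ACAT2, FDFT1, SQLE and FASN had none. The sterol regulatory element was in 1 of the 24 windows (4.17%), SREBF2, and in 1.15% of the 27305 promoters of the table. The CCAAT box, bound by NF-Y, was in 16 of 24 (66.7%) against 35.7% of all. The GC box GGGCGG was in 22 of 24 (91.7%) against 44.6%, and the E-box CACGTG, which reads the same on both strands, in 3 of 24 (12.5%) against 7.44%. No marked motifs overlap in the windows printed above. A match is a description of the sequence, and where a gene had several start sites the first listed was used.

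In 3DMono against 2DMono, 17 of the 28 members passed the test, 15 higher and 2 lower in 3-D, and these covered every step from ACAT2 to lanosterol except PMVK and MVD. Over all 21862 genes tested, 38% passed (17.5% higher, 20.4% lower), and the median log2 fold change was 0.43 over the 28 members beside 0.03 over all genes. Counts were summed per tag and tested with edgeR (quasi-likelihood F), 6 tags against 6 with treatment as a covariate, and a gene passed at a Benjamini-Hochberg adjusted p under 0.05 over all genes. The ranges of the 3-D and 2-D tags did not overlap for 10 members, beside 19.9% of all genes tested.

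Of the 7 early mevalonate genes, 5 rose in 3DMono. HMGCS1 ranged from 167 to 296 CPM with a median of 223 in 3DMono and from 74.4 to 138 with a median of 95.6 in 2DMono, which is 1.21 ± 0.15 on the log2 scale (SE, n = 6 and 6, edgeR adjusted p = 2.19e-05). IDI1 ranged from 38.8 to 55.0 CPM (median 49.0) against 20.4 to 30.6 (median 24.5), 0.95 ± 0.11 on the log2 scale (edgeR adjusted p = 1.24e-05). MVK, mevalonate kinase, ranged from 13.6 to 21.0 CPM against 4.77 to 12.95 (0.84 ± 0.22, edgeR adjusted p = 0.00701). For these 3 genes every 3-D tag was above every 2-D tag. ACAT2, the thiolase that starts the route, rose by 0.79 ± 0.10 with 47.6 to 63.5 CPM against 27.5 to 37.9, and FDPS, farnesyl diphosphate synthase, by 0.42. PMVK (0.06) and MVD (0.39, adjusted p = 0.0563) did not pass.

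All 3 genes from squalene to lanosterol rose in 3DMono, though none of them passed with only the Vehic tags. SQLE, squalene epoxidase, ranged from 70.2 to 95.4 CPM (median 81.6) in 3DMono and from 32.4 to 69.7 (median 44.6) in 2DMono, 0.81 ± 0.14 on the log2 scale (edgeR adjusted p = 0.000345). FDFT1, squalene synthase, rose by 0.66 and LSS, lanosterol synthase, by 0.55. Of the 8 genes from lanosterol to cholesterol only TM7SF2 (0.77), MSMO1 (0.48) and SC5D (0.44) passed, all higher. SC5D missed the threshold in 7 of the 12 fits that left out 1 tag (adjusted p up to 0.0887), and its level stood apart in Vehic tag 1 of 2DMono, without which it passed (0.58). DHCR7, the reductase of the last step, had 0.31 ± 0.24 and did not pass, and NSDHL had -0.08.

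The control genes moved in both directions. INSIG1 ranged from 34.1 to 58.2 CPM (median 37.2) against 17.1 to 35.7 (median 22.4) and rose by 0.73 ± 0.18, with the lowest 3-D tag just below the highest 2-D tag, Vehic tag 1. SREBF1 ranged from 18.9 to 42.6 CPM (median 26.7) against 30.4 to 81.1 (median 49.1) and fell by 0.96 ± 0.23 (log2 fold change -0.96, edgeR adjusted p = 0.00473), with overlapping ranges. SREBF2 (0.13) and STARD4 (-0.20), which carries sterols between membranes, did not pass. Of the 6 fatty acid genes, the elongase ELOVL6 (0.58) and the desaturases FADS1 (0.74) and FADS2 (0.53) rose. ACACA, acetyl-CoA carboxylase, ranged from 232 to 282 CPM against 300 to 352, with no overlap, and had a log2 fold change of -0.32 ± 0.08 (edgeR adjusted p = 0.00474), which without TMM scaling was -0.13 and did not pass. FASN (-0.08) and SCD (-0.27), fatty acid synthase and the stearoyl-CoA desaturase, did not pass, and their tags spread from 41.9 to 141 and from 62.8 to 213 CPM within 3DMono alone.

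Marker genes of other cell types also differed in this comparison: of 8 GABAergic neuron markers 4 were higher and none lower (summed 178 to 1488 CPM in 3DMono, 191 to 591 in 2DMono), of 8 mesenchymal markers 3 were lower and 1 higher (summed 162 to 591 CPM in 3DMono, 631 to 1884 in 2DMono), of 8 astrocyte markers 6 were lower and 1 higher (625 to 853 against 838 to 1214), and of 6 intermediate progenitor markers 4 were higher and 1 lower (31.5 to 73.9 against 15.4 to 36.6). Among the cell classes described further on, progenitor-like cells made up 14.3% to 15.9% of a 3DMono tag and 0% to 0.631% of a 2DMono tag, and intermediate progenitor-like cells 6.08% to 14.1% against 0% to 0.315%. HMGCS1 was higher in progenitor-like cells than in neurons of the same 3DMono tags. The part of these shares and markers in the sums was not tested, and the differences within cell classes are given further on. With only the Vehic tags, 2 against 2, 7 members passed, 5 of them higher, where 14.4% of genes did (4.94% higher, 9.49% lower). In that fit SQLE (0.61), LSS (0.41), FDFT1 (0.34), MVK (0.25) and INSIG1 (0.18) missed the threshold. So did TM7SF2 (0.72), FADS2 (0.40), MSMO1 (0.31), FDPS (0.26), SC5D (0.14) and ACACA (-0.35).

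In 3DFusi against 2DCocu, 13 of the 28 members passed, 5 higher and 8 lower, beside 48.8% of all 22510 genes tested (26.1% higher, 22.7% lower), so the share of members called (46.4%) was near that of all genes. The median log2 fold change was 0.02 over the members and 0.04 over all genes. The higher genes were led by IDI1, with 25.2 to 70.4 CPM (median 50.5) in 10 3DFusi tags and 15.5 to 28.5 (median 21.5) in 12 2DCocu tags, 1.21 ± 0.14 on the log2 scale (edgeR adjusted p = 1.76e-07), and HMGCS1, with 127 to 293 CPM (median 225) against 96.5 to 163 (median 118), 0.81 ± 0.14 (edgeR adjusted p = 3.5e-05). The lowest 3DFusi tag for IDI1 and the 4 lowest of 10 for HMGCS1 lay inside the 2-D range. CYP51A1, which removes a methyl group from lanosterol, rose by 0.39, SQLE by 0.31 and TM7SF2 by 0.31, of which SQLE and TM7SF2 missed the threshold with tag number as a block (adjusted p = 0.0935 and 0.1085) and in 12 and 11 of the 22 fits that left out 1 tag.

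The lower genes were led by SREBF1, with 19.2 to 46.9 CPM (median 22.6) against 36.3 to 77.6 (median 65.0), a log2 fold change of -1.23 ± 0.16 (edgeR adjusted p = 1.96e-06). NSDHL (-0.58 ± 0.15), HSD17B7 (-0.54 ± 0.10) and DHCR7 (-0.40 ± 0.15) of the late sterol steps, LSS (-0.53 ± 0.13) and FDFT1 (-0.35 ± 0.12) of the squalene steps, and STARD4 (-0.31 ± 0.09) were also lower. DHCR7 missed the threshold in 8 of the 22 fits that left out 1 tag and without TMM scaling. With the 3DFusi tags of the same number summed, 9 members passed beside 40.3% of genes, and FDFT1 (-0.29, adjusted p = 0.0841), LSS (-0.41, adjusted p = 0.0965), DHCR7, SQLE and TM7SF2 missed the threshold. ACACA, with 170 to 255 CPM against 260 to 408, was the only member whose ranges did not overlap, as they did not for 6.74% of all genes (-0.51 ± 0.08, edgeR adjusted p = 1.38e-05). INSIG1 (0.22), SREBF2 (-0.26), FASN (-0.46), SCD (-0.38), FADS1 (0.21) and FADS2 (0.01) did not pass. Beside these, all 8 GABAergic neuron markers (95.8 to 1417 CPM summed in 3DFusi, 52.1 to 113 in 2DCocu), 5 of 8 cycling markers (159 to 1292 against 239 to 435) and 4 of 8 choroid plexus markers (49.8 to 974 against 102 to 206) were higher in 3DFusi. Mesenchymal-like cells made up 2.19% to 47.5% of a 3DFusi tag (median 14.03%) and 1.74% to 7.503% of a 2DCocu tag (median 3.38%), progenitor-like cells 0.737% to 19.4% against none in any 2DCocu tag, and excitatory neuron-like cells 2.56% to 18.9% (median 7.504%) against 5.05% to 37.6% (median 27.2%). HMGCS1 was higher in the first 2 of these classes than in neurons of the same 3DFusi tags. Cells without a class name made up 27.6% of 3DFusi and 58.6% of 2DCocu cells. The part of these shares and markers in the sums was not tested. With Vehic tags alone (3 against 4) 8 members passed, 6 higher, where 28.2% of genes did (14.2% higher, 14% lower), and of the 8 lower genes only SREBF1 remained called.

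In the Proto tags, whose 2-D and 3-D arrangements were made by different protocols, format and protocol cannot be told apart. Of the 28 members 9 passed (6 tags against 6), 8 higher and 1 lower in 3-D, beside 24.3% of 25578 genes (13.6% higher, 10.7% lower). INSIG1 ranged from 39.4 to 53.7 CPM (median 41.7) in 3-D and from 13.98 to 31.6 (median 21.1) in 2-D, 1.13 ± 0.13 on the log2 scale (edgeR adjusted p = 0.000255). IDI1 ranged from 40.5 to 56.5 CPM against 23.0 to 32.2 (0.85 ± 0.13, edgeR adjusted p = 0.00104). These 2 were the members with no overlap between formats, beside 6.19% of all genes. HMGCS1 (0.67 ± 0.17), MVK (0.58 ± 0.14) and ACAT2 (0.50 ± 0.14) rose as well, so 4 of the 7 early mevalonate genes were higher. NSDHL (0.43), FDFT1 (0.36) and ACACA (0.27) passed with smaller differences, and STARD4 was lower (-0.50 ± 0.14, edgeR adjusted p = 0.0269). SQLE (0.33), SREBF2 (0.32), DHCR7 (0.29), FASN (0.43), SREBF1 (0.07), SCD (-0.33), FADS1 (-0.33) and FADS2 (0.10) did not pass. All 8 muscle markers were higher in the 3-D Proto tags (71.6 to 6604 against 40.7 to 145 CPM) and 4 of 8 choroid plexus markers lower with 1 higher (37.7 to 139 against 156 to 1291). Progenitor-like cells made up 8.18% to 12.4% of a 2DProto2Fjo tag and at most 1.81% of any other Proto tag. The part of these cells and markers was not tested. Over the 12 fits that left out 1 tag, FDFT1 and ACACA each missed the threshold in 10 (adjusted p up to 0.183 and 0.144), NSDHL in 8, ACAT2 and STARD4 in 5 each and MVK in 3. Without tag 2 of 2DProto2Fjo 3 members passed, and HMGCS1 missed the threshold without 2DProto2Fjo tag 1, 2DProto3Wu tag 1 or 2DProto4Nic tag 2.

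Across the 3 format comparisons, which share no tags, HMGCS1 and IDI1 rose in all 3, and ACAT2, MVK and INSIG1 rose in 2. The share of all genes called in 2 or 3 of these comparisons is not given here. With only the Vehic tags, the 3DMono calls of MVK (0.25), INSIG1 (0.18), SQLE, TM7SF2, FDFT1, LSS and ACACA were lost. SQLE and TM7SF2 rose in 3DMono and FDFT1 in 3DMono and the Proto tags, but the 3DFusi calls of the first 2 and the Proto call of FDFT1 were lost in many of the fits that left out 1 tag, as given above. SREBF1 and STARD4 were lower in 2. ACACA was lower in 2, and its higher Proto call and that of NSDHL, which was lower in 3DFusi, were lost in most such fits. FDFT1 and LSS were higher in 3DMono and lower in 3DFusi, where they missed the threshold with tags of the same number summed. PMVK, MVD, EBP, SREBF2, FASN and SCD passed in none. The difference between the 3DFusi and 3DMono format differences was tested as an interaction in a fit of all tags of the 4 arrangements, with the contrast over the treatments they share, and 6.68% of 24803 genes passed (3.9% higher, 2.77% lower). It was lower for LSS (-0.88 ± 0.27, edgeR adjusted p = 0.0413), FDFT1 (-0.82 ± 0.25, adjusted p = 0.0416) and HSD17B7 (-0.80 ± 0.21, adjusted p = 0.0194), and no member had a higher one. For IDI1 it was 0.52 ± 0.24 and for HMGCS1 -0.14 ± 0.27, neither past the threshold. The interaction fit treated the 3DFusi tags as independent, though tags of the same number were alike, and LSS and FDFT1 were close to the threshold.

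**Figure D2:**
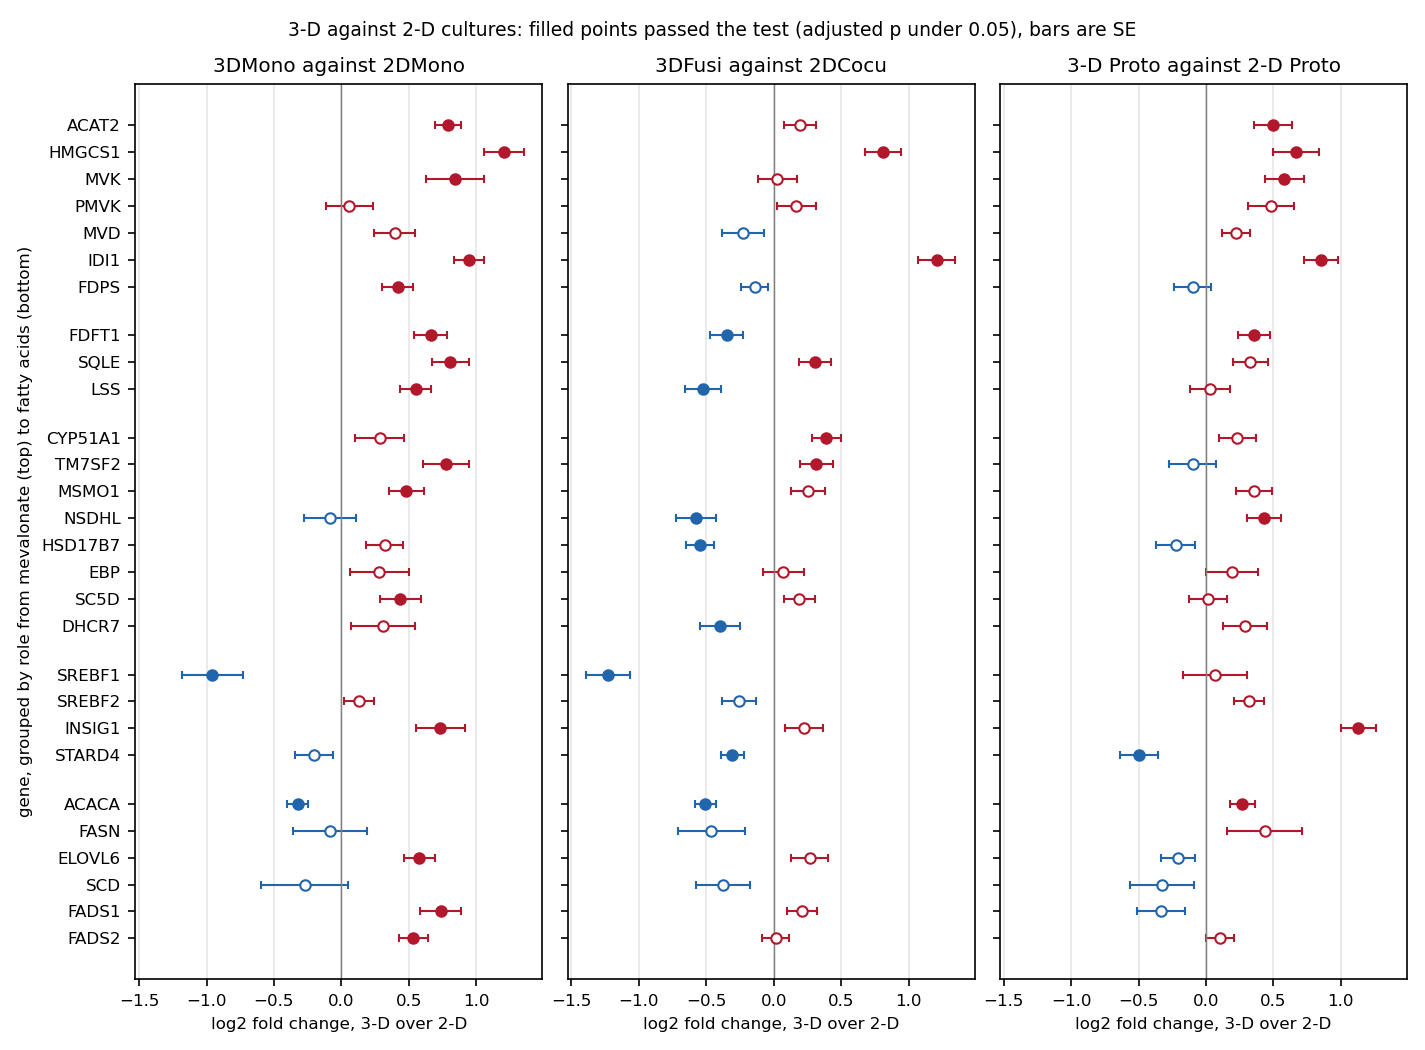
Log2 fold change of each member, 3-D over 2-D, in the 3 format comparisons, with genes ordered by role from mevalonate at the top to fatty acids at the bottom (points, estimate; bars, SE; filled, adjusted p under 0.05; red, higher and blue, lower in 3-D). HMGCS1 and IDI1 are filled and to the right in every panel, SREBF1 is filled to the left in the 3DMono and 3DFusi panels, and the squalene genes FDFT1 and LSS lie right in 3DMono and left in 3DFusi.

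Other genes of sterol and fatty acid handling were read from 5 further lists of 55 genes in all. Among the other sterol synthesis genes, 2 were higher in 3DMono, among them FAXDC2 (0.60 ± 0.13), and none lower. In 3DFusi 4 were higher, among them ERG28 (1.18), FAXDC2 (0.71) and IDI2 (0.68), and in the 3-D Proto tags 2, IDI2 (0.77) and ACAT1 (0.42). Among genes of SREBP control and sterol uptake, TMEM97 was higher in 3DMono (0.80 ± 0.21) and MYLIP (-1.33), NPC2 (-0.98) and LPIN1 (-0.49) were lower. In 3DFusi SCAP (0.32), MBTPS2 (0.31) and MBTPS1 (0.22) were higher and NPC1 (-0.53) and INSIG2 (-0.24) lower. In the 3-D Proto tags 3 were higher, among them NPC1 (0.40), and 2 lower, MBTPS2 (-0.76) and MBTPS1 (-0.48).

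The list of sterol efflux, oxysterol and LXR genes had more lower than higher genes in 3DMono and 3DFusi, and none of it passed in the Proto tags. Of its 9 tested genes (CH25H was not tested) 7 were lower in 3DMono, beside 20.4% of all genes, led by the cholesterol exporter ABCA1 (-2.19 ± 0.15), APOE (-1.51 ± 0.38) and CYP27A1 (-1.30 ± 0.19), and 6 were lower in 3DFusi, beside 22.7% of all genes, led by ABCG1 (-1.36), CYP7B1 (-1.25) and CYP27A1 (-0.82). NR1H3, which encodes an LXR receptor, was higher in both (0.76 and 0.73). Among 16 genes of acetyl-CoA supply and other fatty acid steps, 7 were lower and 1 higher in 3DMono and 9 were lower and 1 higher in 3DFusi. ME1, which makes NADPH, had the largest decreases of this list in both (-2.32 and -3.06), followed by SCD5 (-0.95) and ELOVL7 (-0.81) in 3DMono and ELOVL7 (-1.25) and ACSL4 (-1.004) in 3DFusi. ACSL6 was the higher gene in both (0.93 and 1.39), and ELOVL5 (1.12) and ACSL6 (0.85) were higher and ACSL4 (-0.61) lower in the 3-D Proto tags. Of 9 fatty acid oxidation genes, CPT1C (0.73) and ACADM (0.36) were higher and CPT1A (-1.37), ACADVL (-0.64) and PPARA (-0.42) lower in 3DMono. CPT1C (0.41) was higher and PPARA (-0.75) lower in 3DFusi, and CPT1A (1.07) was higher with ACADM (-0.61) and PPARA (-0.61) lower in the 3-D Proto tags.

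In 2DCocu, 4 of the 28 members were higher in the 4 AcCoc tags than in the 4 Vehic tags and none was lower, beside 6.09% of 21032 genes (3.6% higher, 2.49% lower). The fold change was positive for 23 members, with a median of 0.32 over the members and -0.00174 over all genes, and 14 members had an unadjusted p under 0.05. For such counts of unadjusted p the share of all genes is not given, here or in the other treatment comparisons. MSMO1, which oxidises a methyl group of the sterol ring, had 67.2, 71.7, 89.4 and 75.5 CPM in AcCoc tags 1 to 4 and 53.2, 55.2, 49.0 and 50.1 in Vehic tags 1 to 4, 0.57 ± 0.11 on the log2 scale (edgeR adjusted p = 0.0075). SC5D, a sterol desaturase, had 33.4, 31.3, 36.9 and 39.3 CPM against 27.2, 26.4, 20.6 and 25.7 (0.51 ± 0.12, edgeR adjusted p = 0.0185). Every AcCoc tag was above every Vehic tag for both genes.

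IDI1 had 24.2, 27.0, 28.5 and 26.1 CPM in the AcCoc tags and 21.6, 19.0, 15.5 and 19.2 in the Vehic tags (0.50 ± 0.12, edgeR adjusted p = 0.0252). HMGCS1 had 134, 129, 156 and 163 CPM against 120, 115, 98.4 and 103 (0.43 ± 0.12, edgeR adjusted p = 0.0372). For these genes too the ranges did not overlap, and 8 members in all had no overlap, beside 12.1% of all genes, the others being ACAT2 (0.44), CYP51A1 (0.38), INSIG1 (0.43) and STARD4 (0.26), none of which passed. By role, 2 of 7 early mevalonate genes and 2 of 8 late sterol genes passed, and none of the squalene, control or fatty acid genes did. SREBF2 had 258, 226, 282 and 288 CPM in AcCoc and 288, 255, 267 and 283 in Vehic, with overlapping ranges and a log2 fold change of -0.03 ± 0.12.

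**Figure D3:**
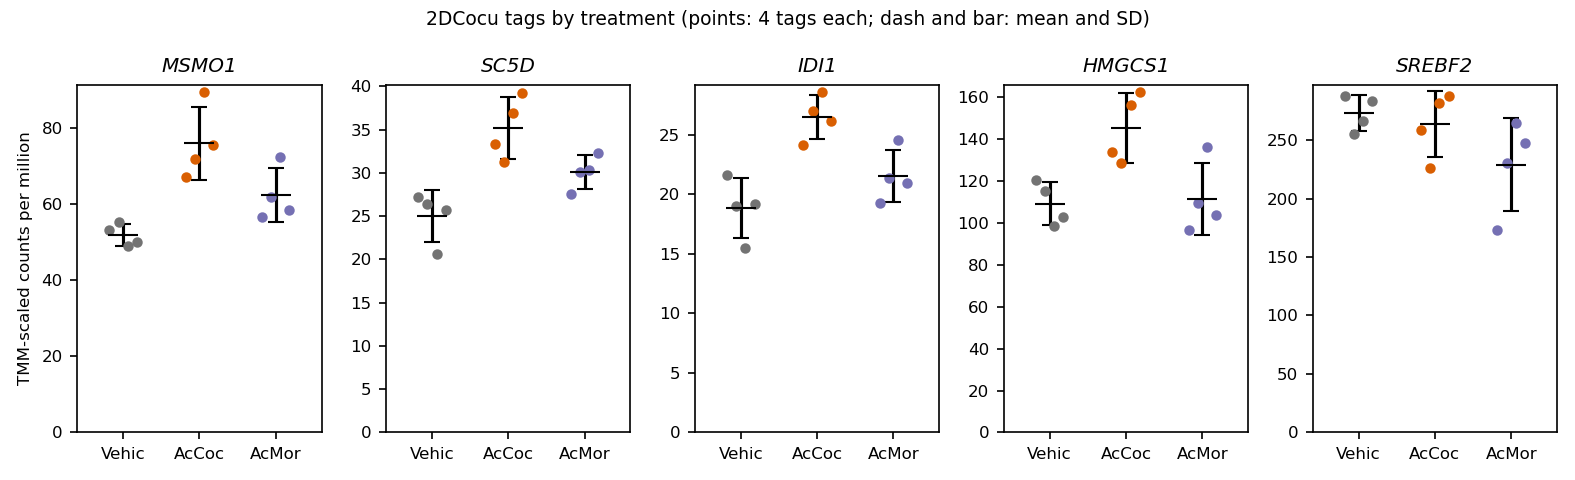
Level of the 4 members that passed in AcCoc and of SREBF2 in the 12 2DCocu tags (points, 4 tags per treatment, TMM-scaled CPM from 0; dash and bar, mean and SD). For MSMO1, SC5D, IDI1 and HMGCS1 all AcCoc points lie above all Vehic points with AcMor between or overlapping, and for SREBF2 the treatments overlap.

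Other measures moved with AcCoc. Of 8 excitatory neuron markers 7 were higher (summed 297 to 468 CPM in AcCoc, 176 to 252 in Vehic), as were 4 of 8 general neuron markers (2834 to 3335 against 1816 to 2806) and 3 of 6 intermediate progenitor markers (28.3 to 37.8 against 16.0 to 20.9). The mean mitochondrial share was 3.46% to 3.96% in AcCoc, 3.58% to 4.04% in AcMor and 1.99% to 3.14% in Vehic tags. Their part in the members' differences was not tested. Among the further lists, TMEM97 (0.63 ± 0.15) and INSIG2 (0.45 ± 0.13) were higher and CPT1A (-0.58 ± 0.14), ME1 (-0.51 ± 0.14) and ACACB (-0.46 ± 0.10) lower. Without AcCoc tag 3, AcCoc tag 4 or Vehic tag 3, 1 member passed, without Vehic tag 2, 2 did, and without AcCoc tag 1, 7 did, while MSMO1 passed whichever tag was left out. HMGCS1 missed the threshold in 7 of these 12 fits, IDI1 in 5 and SC5D in 3. The share of all genes called in these fits is not given here. HMGCS1 and IDI1 missed the threshold without TMM scaling and with tag number as a block.

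Within single clusters of 2DCocu cells the AcCoc difference was tested in 7 clusters, after the data were seen. No member passed in any of them, where 0% to 0.347% of genes did. The members' fold changes were positive for 25 of 27 tested members in cluster 0, 21 of 27 in cluster 4, 17 of 26 in cluster 2, 17 of 25 in cluster 9, 15 of 25 in cluster 15, 15 of 26 in cluster 16 and 17 of 19 in cluster 28. For AcMor against the same Vehic tags the counts were 19, 6, 15, 10, 12, 15 and 17 in the same order of clusters. These counts are a description, and the share of all genes with a positive value is not given here. In cluster 0, whose leading genes include SLC15A1, IL1R1 and BMP6 and which stayed unnamed, the median AcCoc difference was 0.42 over members, beside -0.00215 over all genes. There 14 members had an unadjusted p under 0.05. In cluster 2, excitatory neuron-like, the median AcCoc difference was 0.22, beside 0.02 over all genes, with 5 such members.

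AcMor in 2DCocu, which shares its Vehic tags with AcCoc, gave no member past the threshold by edgeR or DESeq2, 3 at an unadjusted p under 0.05, and 0.975% of genes called (0.685% higher, 0.29% lower). The smallest p were for MSMO1, 56.7 to 72.3 CPM and 0.28 ± 0.11 (adjusted p = 0.236), and SC5D, 27.6 to 32.3 CPM and 0.29 ± 0.12 (adjusted p = 0.267). ME1 was lower (-0.70 ± 0.14).

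In the other 6 treatment comparisons edgeR called no gene at all (0%), and DESeq2 called no member. In 3DFusi no member had an unadjusted p under 0.05 in either contrast, and the smallest were SCD (-0.51 ± 0.41) and MVD (0.31 ± 0.28) for AcCoc and IDI1 (-0.38 ± 0.31) and FDPS (-0.25 ± 0.23) for AcMor. The 3DFusi tags spread more than the 2DCocu tags, with a common biological coefficient of variation of 0.337 against 0.152. The AcCoc difference in 2DCocu minus that in 3DFusi, also tested after the data were seen, passed for no member (0.00425% of genes called; 5 members at an unadjusted p under 0.05).

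In 2DMono, HMGCS1 had 138 and 120 CPM in the Vehic tags, 97.1 and 77.9 in AcDop and 74.4 and 94.2 in AcMor, log2 fold changes of -0.56 ± 0.19 and -0.60 ± 0.19. Both Vehic tags were above the other 4, and neither difference passed over all genes (adjusted p = 1 and 0.776). Groups did not overlap for 23.7% (AcDop) and 43.2% (AcMor) of all genes tested in 2DMono. The higher Vehic value was that of tag 1, which stood apart in depth and mitochondrial share. INSIG1 had 35.7 and 28.5 CPM in Vehic against 17.7 and 17.1 in AcDop (-0.89 ± 0.23, adjusted p = 1), and FADS1 had 0.73 ± 0.26 for AcMor. In 3DMono, FASN had 41.9 and 46.7 CPM in Vehic, 99.4 and 81.9 in AcDop and 141 and 55.4 in AcMor. Its log2 fold changes were 1.04 ± 0.40 (adjusted p = 1) and 1.15 ± 0.40 (adjusted p = 0.495), with the Vehic tags below all others. Groups did not overlap for 34.6% (AcDop) and 35.7% (AcMor) of all genes tested in 3DMono. LSS had 0.47 ± 0.19 for AcDop and ELOVL6 0.54 ± 0.21 for AcMor, also not past the threshold. At an unadjusted p under 0.05 there were 3 members for each contrast in 2DMono, 2 for AcDop and 3 for AcMor in 3DMono.

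Cells were grouped into 45 clusters without using the 28 members and the 55 genes of the further lists, and a cluster was named "X-like" from marker lists. There were 14 clusters with 15230 cells that stayed unnamed. Unnamed cells made up 58.6% of 2DCocu, 28.3% of 2DMono, 27.6% of 3DFusi and 16.2% of 3DMono cells, and the class comparisons leave them out. Each class was compared with the neuron-like classes of the same tags, with tag as a block, in 15 comparisons. The neuron-like cells were mostly excitatory in 2DCocu (2334 cells, with 91 GABAergic) and mostly GABAergic in 3DFusi (1448 cells, with 880 excitatory). They held 1552 excitatory and 663 GABAergic cells in 2DMono, and 1560 and 991 in 3DMono. The reference therefore differed between arrangements. Other genes took part in forming the clusters, and the share of all genes called is given beside each count.

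Progenitor-like cells, which carry radial glia markers and came almost all from cluster 7, had a median log2 difference over the members of 0.67 in 3DMono and 0.77 in 3DFusi, the highest above neurons among the classes compared in each of these arrangements. In 3DMono 23 of 28 members were higher than in neurons and none lower (52.9% of genes called, 26.3% higher and 26.5% lower), and in 3DFusi 21 of 27 tested were higher and 1 lower (51% of genes called, 25.5% higher and 25.5% lower). There were 20 members higher in both, and the share of all genes higher in both is not given here. HMGCS1 ranged from 358 to 613 CPM (median 445) in progenitor-like cells and from 133 to 216 (median 177) in neurons of 3DMono, 1.43 ± 0.10 on the log2 scale (edgeR adjusted p = 1.3e-08), and every progenitor value was above every neuron value. SCD (1.39 ± 0.12), FDPS (1.24 ± 0.11), IDI1 (1.14 ± 0.08) and ACAT2 (1.07 ± 0.13) followed. In 3DMono 13 of the 28 members had no overlap and passed, beside 25.1% of all genes.

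By role, all 3 squalene genes, 6 of 7 early mevalonate genes, 6 of 8 late sterol genes, 3 of 4 control genes and 5 of 6 fatty acid genes were higher in 3DMono progenitor-like cells. INSIG1 (1.05), DHCR7 (0.90), FASN (0.89), FADS1 (0.75), SQLE (0.61), SREBF2 (0.57) and FADS2 (0.55) were among them, and SREBF1 (-0.07) did not pass. In 3DFusi SCD ranged from 93.9 to 570 CPM against 41.5 to 145 (1.60 ± 0.11), HMGCS1 from 235 to 693 against 108 to 242 (1.504 ± 0.106), and FDPS (1.22), INSIG1 (1.16) and HSD17B7 (1.13) followed, while ELOVL6 was lower (-0.75 ± 0.14). DHCR7 (1.03), SQLE (0.89), FASN (0.81), SREBF2 (0.51) and FADS2 (0.36) also passed there, and FADS1 (0.29) and SREBF1 (-0.02) did not. Of the further lists, SOAT1 (1.90 and 2.14), which esterifies cholesterol, and ACACB (2.34 and 2.82) were higher in progenitor-like cells of 3DMono and 3DFusi. ABCG1 (-2.86 and -1.80) and SCD5 (-2.01 and -1.62) were lower. Of the sterol efflux, oxysterol and LXR genes 3 were higher and 2 lower in 3DMono, and 4 higher and 1 lower in 3DFusi. Of the fatty acid oxidation genes 6 were higher and 1 lower in 3DMono, and 5 higher and 1 lower in 3DFusi. Over all genes 26.3% and 25.5% were higher, and 26.5% and 25.5% lower.

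Choroid plexus-like cells, defined by genes such as TTR and HTR2C, had a median difference over the members of -0.97 in 3DMono and -0.48 in 3DFusi. In 3DMono 16 of 27 tested members were lower than in neurons and none higher (47.4% of genes called, 24.4% higher and 23% lower), with no overlap for 13 of them, as for 37.4% of all genes. MVD ranged from 4.95 to 13.2 CPM (median 9.57) in choroid plexus-like cells and from 31.7 to 44.6 (median 38.6) in neurons of the same 4 tags, a log2 fold change of -2.20 ± 0.27 (edgeR adjusted p = 3.2e-05). MSMO1 (-2.05 ± 0.19), FDFT1 (-1.79 ± 0.16), SC5D (-1.75 ± 0.26) and INSIG1 (-1.60 ± 0.41) were next. HMGCS1 (-1.51), SQLE (-1.37), SREBF2 (-1.22), DHCR7 (-1.21) and FASN (-0.55) were lower too, and SREBF1 (0.26), SCD (0.02), FADS1 (-0.13) and FADS2 (-0.33) did not pass. Of the 4 fits that left out 1 tag, DHCR7 (-1.84 to -0.86, adjusted p up to 0.148) and FASN (adjusted p up to 0.0842) each missed the threshold in 2, NSDHL in 3 (adjusted p up to 0.106), MVK in 2 (up to 0.096) and INSIG1 in 1. In 3DFusi 12 were lower and 4 higher (49.2% of genes called, 24.9% higher and 24.3% lower), and the same 12 were lower in 3DMono. The share of all genes lower in both is not given here. ELOVL6 (-1.60 ± 0.17), DHCR7 (-1.57 ± 0.37), MVD (-1.44 ± 0.25), FDFT1 (-1.36 ± 0.19) and HMGCS1 (-1.09 ± 0.22) led the lower genes, and SCD (0.74 ± 0.14), SREBF1 (0.58 ± 0.20), FDPS (0.55 ± 0.21) and STARD4 (0.54 ± 0.15) were higher. SQLE (-0.97) and SREBF2 (-0.88) were lower there, while INSIG1 (-0.48), FASN (-0.04), FADS1 (-0.02) and FADS2 (-0.11) did not pass. Of 9 fatty acid oxidation genes 4 were higher in choroid plexus-like cells of 3DMono and 8 in those of 3DFusi, and none was lower. CPT1A (3.95 and 4.08) and PPARA (2.86 and 2.97) were among them in both. Of the sterol efflux, oxysterol and LXR genes all 7 tested in 3DMono and 7 of 9 tested in 3DFusi were higher, among them CYP27A1 (2.47 and 2.72).

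Cycling-like cells had more members higher than lower in all 4 arrangements. In 3DMono 19 of 28 were higher and none lower (57.2% of genes called, 28.5% higher and 28.6% lower), in 3DFusi 14 of 27 tested were higher and 2 lower (50.2% of genes called, 24.9% higher and 25.2% lower), in 2DMono 14 higher and 4 lower (62% of genes called, 31.4% higher and 30.5% lower), and in 2DCocu 12 higher and 4 lower (60.8% of genes called, 32.6% higher and 28.2% lower). SCD, which makes monounsaturated fatty acids, ranged from 97.1 to 230 CPM against 18.8 to 58.4 in 2DMono (1.95 ± 0.15), from 79.5 to 284 against 38.3 to 127 in 3DMono (1.01 ± 0.08), from 105 to 306 against 42.4 to 95.8 in 2DCocu (1.31 ± 0.08) and from 54.4 to 424 against 41.0 to 144 in 3DFusi (1.06 ± 0.15). FDPS (1.24, 1.06, 1.13 and 1.1995 in 3DMono, 3DFusi, 2DMono and 2DCocu), INSIG1 (0.75, 0.83, 0.84 and 0.80), FADS2 (0.73, 0.76, 0.93 and 1.04), FASN (0.72, 0.36, 1.15 and 0.81) and HMGCS1 (0.74, 0.75, 0.46 and 0.26) passed in all 4. So did SQLE (0.42, 0.55, 0.43 and 0.41) and SREBF2 (0.30, 0.33, 0.32 and 0.20).

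SREBF1 passed in 3DFusi (0.39), 2DMono (0.72) and 2DCocu (0.55) and not in 3DMono (0.25), FADS1 passed in 3DMono (0.42), 3DFusi (0.50) and 2DCocu (0.35) and not in 2DMono (0.16), and DHCR7 passed only in 3DMono (0.38), with 0.31, 0.25 and 0.01 in the others. ACAT2 (0.86 ± 0.12) and IDI1 (0.77 ± 0.10) were also among the 5 most raised in 3DMono. The lower genes were MVD (-0.59) and ELOVL6 (-0.77) in 3DFusi, MVD (-0.61), STARD4 (-0.57), ELOVL6 (-0.49) and MSMO1 (-0.31) in 2DMono, and MVD (-0.50), MSMO1 (-0.49), ELOVL6 (-0.21) and FDFT1 (-0.21) in 2DCocu.

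Intermediate progenitor-like cells, named from markers of that cell type, had members on both sides of the neurons. Cluster 18 held 77.15% of the class in 3DMono and 75.62% in 3DFusi. EOMES and NEUROG1 were among the leading genes of cluster 39, which held 22.46% and 22.81%. At Leiden resolution 0.4 the cluster of this name held 299 cells, beside 779 cells of the class in 3DMono alone at 0.8. The extent of the class therefore depends on the clustering. In 3DMono 8 members were higher and 4 lower (40.3% of genes called, 18.8% higher and 21.5% lower), and in 3DFusi 5 of 26 tested were higher and 1 lower (24.9% of genes called, 11.4% higher and 13.6% lower). In 3DMono FADS2 (0.58 ± 0.08), FADS1 (0.55), SREBF1 (0.50), FDPS (0.49) and SCD (0.42) led, with INSIG1 (0.42) also higher, and ELOVL6 (-0.70), MVD (-0.58), SC5D (-0.49) and MVK (-0.47) were lower. SREBF2 (0.11), HMGCS1 (0.07), SQLE (0.02), DHCR7 (-0.38) and FASN (0.09) did not pass. In 3DFusi INSIG1 (0.79), FDFT1 (0.76), SCD (0.65), FADS2 (0.63) and SREBF2 (0.46) were higher and ELOVL6 lower (-1.18 ± 0.15), while SREBF1 (0.31), HMGCS1 (0.34), SQLE (0.08), DHCR7 (0.32), FASN (0.20) and FADS1 (0.46) did not pass.

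Mesenchymal-like cells, which carry collagen markers, differed between arrangements. In 2DCocu 3 members were higher and 11 of 25 tested lower than in neurons (63.8% of genes called, 32.1% higher and 31.7% lower), led by ACAT2 with 7.18 to 19.0 CPM against 28.4 to 57.5 (-1.65 ± 0.23, edgeR adjusted p = 4.4e-06), HSD17B7 (-1.41), ELOVL6 (-1.14), MSMO1 (-1.12) and MVD (-1.0007). SCD (0.61), STARD4 (0.55) and FASN (0.39) were higher, HMGCS1 (-0.60) and SREBF2 (-0.33) lower, and SREBF1 (-0.13), INSIG1 (-0.23), SQLE (-0.30), DHCR7 (-0.53), FADS1 (-0.05) and FADS2 (-0.14) did not pass. In 3DFusi 13 of 27 tested were higher and only ELOVL6 lower (64.3% of genes called, 32.4% higher and 31.8% lower). FDPS (1.77 ± 0.25), INSIG1 (1.53 ± 0.31), HMGCS1 (1.33 ± 0.29), IDI1 (1.24 ± 0.26) and FASN (1.23 ± 0.14) led, ELOVL6 had -1.21 ± 0.16, SCD (0.80), SREBF1 (0.60) and SQLE (0.53) were also higher, and SREBF2 (0.13), DHCR7 (-0.21), FADS1 (-0.07) and FADS2 (0.20) did not pass. In 3DMono 6 were higher and 2 lower (49.3% of genes called, 24.3% higher and 25.1% lower): FDPS (1.56), IDI1 (1.05), INSIG1 (0.87), STARD4 (0.81) and HMGCS1 (0.69) led, FASN (0.68) was also higher, and ELOVL6 (-0.88) and LSS (-0.48) were lower. SREBF1 (0.28), SREBF2 (-0.18), SQLE (0.01), DHCR7 (-0.07), SCD (-0.04), FADS1 (-0.02) and FADS2 (0.02) did not pass there. The classes were made of different clusters, cluster 26 in 2DCocu (93.5% of the class) and clusters 13, 23 and 40 in 3DFusi. The neurons they were compared with also differed, being mostly excitatory in 2DCocu and mostly GABAergic in 3DFusi.

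Ciliated or ependymal-like cells of 3DFusi had 12 of 27 tested members lower and 2 higher (57.3% of genes called, 28.6% higher and 28.7% lower). ELOVL6 (-1.37 ± 0.11), MVD (-1.24 ± 0.14), STARD4 (-0.81 ± 0.13), ACAT2 (-0.77 ± 0.17) and SREBF2 (-0.72 ± 0.09) led the lower genes, SQLE (-0.45) and FASN (-0.36) were lower, and SCD (0.86 ± 0.11) and FDPS (0.50 ± 0.16) higher. SREBF1 (0.15), INSIG1 (-0.30), HMGCS1 (-0.11), DHCR7 (-0.79), FADS1 (-0.34) and FADS2 (-0.18) did not pass. In 2DCocu the class was mostly cluster 42, of which 42% were called doublets, and 4 of 23 tested members were higher and none lower (46.3% of genes called, 24.5% higher and 21.9% lower): FDPS (2.17 ± 0.36), NSDHL (1.18 ± 0.35), SCD (1.15 ± 0.23) and FASN (0.73 ± 0.24). SREBF1 (0.51), SREBF2 (-0.11), INSIG1 (0.82), HMGCS1 (0.07), SQLE (0.18), DHCR7 (0.55) and FADS2 (0.36) did not pass, and FADS1 was not tested. With finer clusters (Leiden resolution 1.2) 19 members passed in this comparison, 16 higher and 3 lower, where 69.3% of genes did (35.9% higher, 33.4% lower), and with DESeq2 2 passed. FASN missed the threshold in 2 of the 4 fits that left out 1 tag and NSDHL in 1.

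Counted over the 15 comparisons, SCD was higher than in neurons in 13 and lower in none, FDPS higher in 12 and lower in none, and INSIG1 and FASN higher in 10 each, with INSIG1 lower in 1 and FASN in 2. ELOVL6 was lower in 12 and MVD in 8, and neither was higher in any. Comparisons within an arrangement share neuron cells, so these counts are a description. ELOVL6 had 411 and 304 CPM in GABAergic neuron-like clusters 3 and 24, and 168 and 150 in clusters 8 and 21. In excitatory neuron-like clusters ELOVL6 had 113 to 217 CPM. The part of the mixture of neurons in these counts was not tested.

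**Figure D4:**
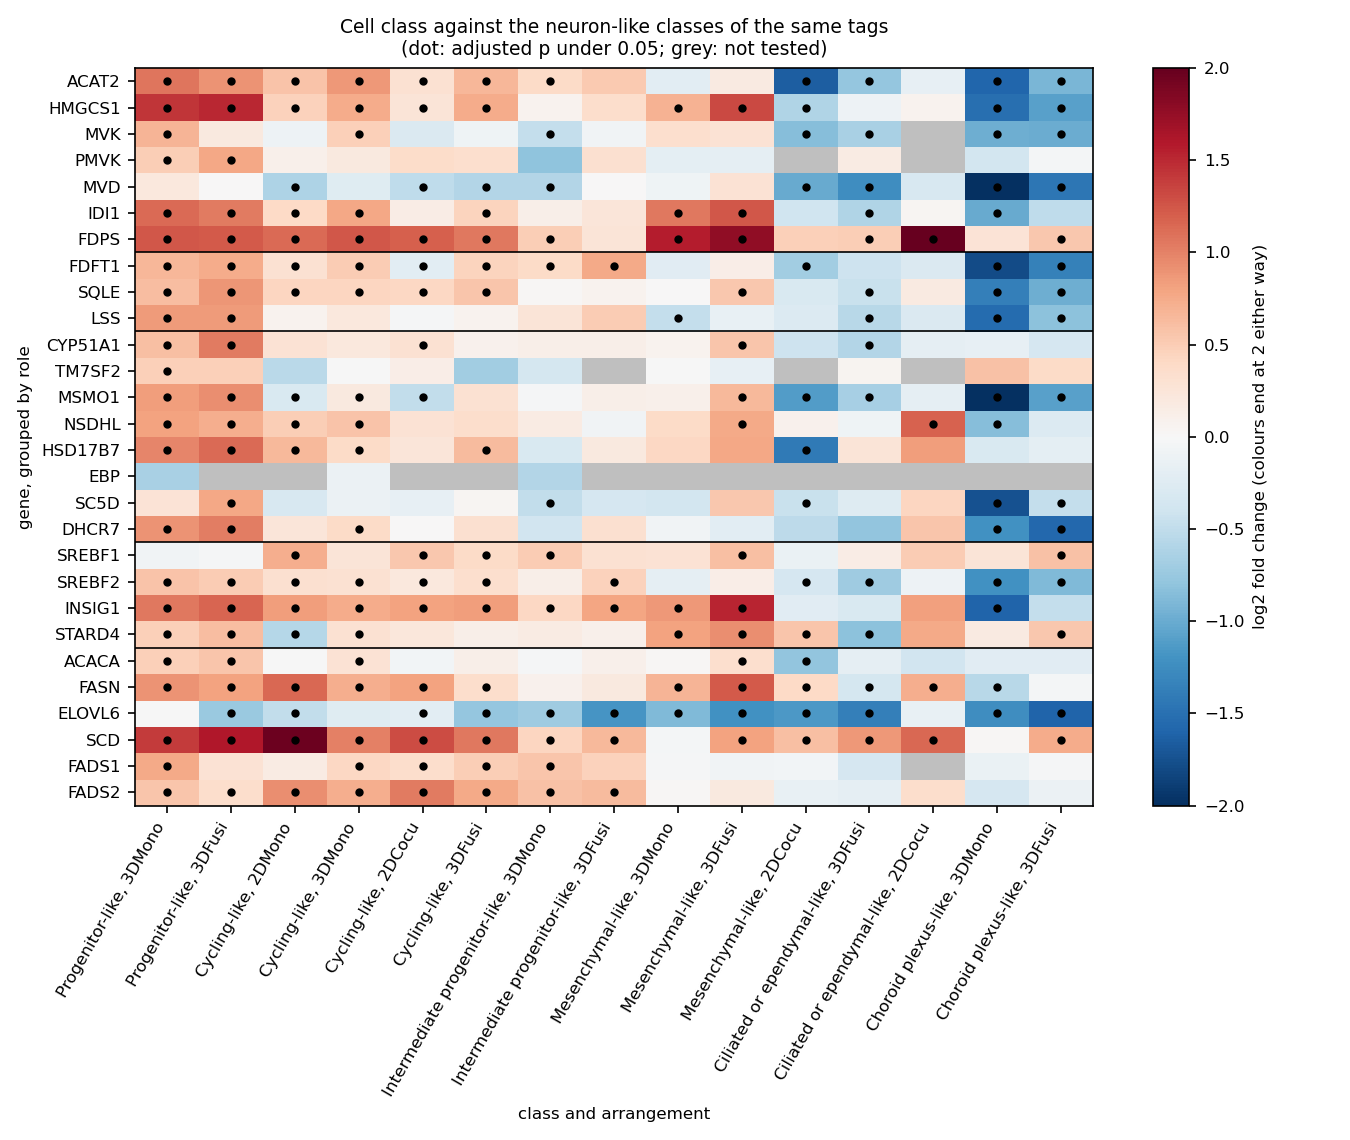
Log2 fold change of each member (rows, by role) in each cell class against the neuron-like classes of the same tags (columns, 15 comparisons; colour scale ends at 2 either way; dot, adjusted p under 0.05; grey, not tested). The progenitor-like columns are red or near white except at SREBF1, ELOVL6 and, in 3DMono, EBP. The choroid plexus-like columns are mostly blue, and the ELOVL6 row is blue or near white throughout.

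Format differences within a class could be tested in 7 cases, with the members of a class lying in different clusters in 2-D and 3-D. Excitatory neuron-like cells were mainly clusters 2, 20 and 28 in 2-D and cluster 1 in 3-D, GABAergic neuron-like cells cluster 24 in 2DMono and cluster 3 in 3DMono, and cycling-like cells clusters 9 and 35 in 2-D (with 15.7% in cluster 10 in 2DMono) and clusters 10 and 17 in 3-D. Members that did not pass the filter on low counts in a class are left out of its counts, EBP most often.

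In 3DMono against 2DMono, 15 of 27 tested members were higher and 1 lower in cycling-like cells (34.3% of genes called, 15.8% higher and 18.5% lower), 10 of 27 higher and 2 lower in excitatory neuron-like cells (31.7% of genes called, 14.3% higher and 17.4% lower), and 5 of 25 higher and 1 lower in GABAergic neuron-like cells (21.5% of genes called, 8.2% higher and 13.3% lower). HMGCS1, SQLE, FDFT1 and FADS2 were higher in all 3 classes, and the share of all genes higher in all 3 is not given here. HMGCS1 ranged from 211 to 398 CPM against 55.1 to 162 in cycling-like cells (1.30 ± 0.21), from 123 to 204 against 56.6 to 86.01 in excitatory neuron-like cells (1.09 ± 0.12) and from 156 to 203 against 67.3 to 112 in GABAergic neuron-like cells (1.13 ± 0.14). Its ranges did not overlap in any of the 3, and the edgeR adjusted p were 0.00029, 1.2e-06 and 7.9e-06.

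In cycling-like cells MVK (1.16 ± 0.25), TM7SF2 (1.10 ± 0.28), IDI1 (1.08 ± 0.19) and SQLE (0.88 ± 0.17) were the next largest, INSIG1 (0.70) and FADS2 (0.44) passed, and SREBF1 was lower (-0.89 ± 0.21). SREBF2 (0.16), DHCR7 (0.57), FASN (0.11), SCD (0.03) and FADS1 (0.55) did not pass. In excitatory neuron-like cells INSIG1 (0.94 ± 0.19), SQLE (0.87 ± 0.15), IDI1 (0.85 ± 0.16) and FADS2 (0.71 ± 0.12) followed HMGCS1, and STARD4 (-0.70 ± 0.14) and ACACA (-0.50 ± 0.10) were lower. SCD (0.94), DHCR7 (0.63), FASN (0.55), FADS1 (0.38), SREBF2 (0.29) and SREBF1 (-0.42) did not pass. In GABAergic neuron-like cells SQLE (1.11 ± 0.19), SCD (1.05 ± 0.33), FDFT1 (0.76 ± 0.18) and FADS2 (0.45 ± 0.15) were higher, and STARD4, with 27.9 to 49.5 CPM against 82.1 to 114, was lower (-1.37 ± 0.19, edgeR adjusted p = 1.8e-05). SREBF1 (-0.25), SREBF2 (0.01), INSIG1 (0.26), DHCR7 (-0.15), FASN (0.69) and FADS1 (0.39) did not pass.

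In 3DFusi against 2DCocu the classes differed. These fits treated the 3DFusi tags as independent, though tags of the same number were alike. Mesenchymal-like cells had 15 of 26 tested members higher and none lower (39% of genes called, 20.6% higher and 18.4% lower), 6 of them early mevalonate genes. IDI1 ranged from 23.0 to 157 CPM (median 93.9) against 7.63 to 25.7 (median 17.8), 2.41 ± 0.31 on the log2 scale (edgeR adjusted p = 1e-05), with the lowest 3-D tag inside the 2-D range. HMGCS1 ranged from 131 to 628 CPM against 37.8 to 95.4 with no overlap (2.33 ± 0.31, edgeR adjusted p = 1.9e-05). TM7SF2 (1.99 ± 0.45), ACAT2 (1.85 ± 0.33), INSIG1 (1.63 ± 0.31), SQLE (1.13) and FADS2 (0.57) were also higher. SREBF1 (-0.50), SREBF2 (0.12), DHCR7 (0.06), FASN (0.84), SCD (0.41) and FADS1 (-0.08) did not pass. Cluster 26 held most of the 2-D cells of this class and clusters 13 and 23 most of the 3-D cells, so these are differences between unlike clusters under 1 name.

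Excitatory neuron-like cells of 3DFusi had 2 members higher and 6 of 26 tested lower (42.4% of genes called, 21.5% higher and 21% lower). IDI1 (0.93 ± 0.14) and HMGCS1 (0.48 ± 0.18) were the higher ones, and SREBF1 (-1.15 ± 0.18), HSD17B7 (-0.76 ± 0.20), ACACA (-0.68 ± 0.07), NSDHL (-0.53 ± 0.19) and FDFT1 (-0.53 ± 0.13) led the lower ones. ACACA ranged from 213 to 282 CPM against 334 to 476, with no overlap. SREBF2 (-0.20), INSIG1 (0.00), SQLE (0.29), DHCR7 (-0.09), FASN (-0.07), SCD (0.17), FADS1 (-0.07) and FADS2 (0.04) did not pass. Cycling-like cells had 3 higher, IDI1 (0.98 ± 0.18), HMGCS1 (0.83 ± 0.21) and ELOVL6 (0.39 ± 0.10), and 6 of 26 lower (34.4% of genes called, 16.9% higher and 17.6% lower), led by SREBF1 (-1.23 ± 0.19), FASN (-0.85 ± 0.32), STARD4 (-0.69 ± 0.18), ACACA (-0.67 ± 0.11) and LSS (-0.64 ± 0.21). SREBF2 (-0.05), INSIG1 (-0.26), SQLE (0.18), DHCR7 (-0.21), SCD (-0.07), FADS1 (0.29) and FADS2 (-0.11) did not pass.

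Ciliated or ependymal-like cells (8 3DFusi tags against 4 2DCocu tags) had 7 of 26 tested members lower and none higher (15.5% of genes called, 6.62% higher and 8.85% lower): STARD4 (-1.80 ± 0.30), NSDHL (-1.78 ± 0.38), HSD17B7 (-1.37 ± 0.41), FDPS (-1.31 ± 0.31), MVD (-1.19 ± 0.39), SREBF1 (-1.14 ± 0.30) and SREBF2 (-0.90 ± 0.24). INSIG1 (-0.73), HMGCS1 (0.59), SQLE (-0.02), DHCR7 (-1.03), FASN (-1.25), SCD (0.85), FADS1 (-0.04) and FADS2 (-0.32) did not pass. Its 2-D cells were mostly cluster 42 and its 3-D cells cluster 14, and the count ran from 3 without the 3DFusi Vehic tag 3 to 12 without the 3DFusi Vehic tag 1. The share of all genes called without these tags is not given here. Over the 12 fits that left out 1 tag, MVD missed the threshold in 7, HSD17B7 and SREBF1 in 4 each and SREBF2 in 3. With finer clusters (Leiden resolution 1.2) 22 members were lower and none higher, where 44.6% of genes passed (23.1% higher, 21.5% lower).

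**Figure D5:**
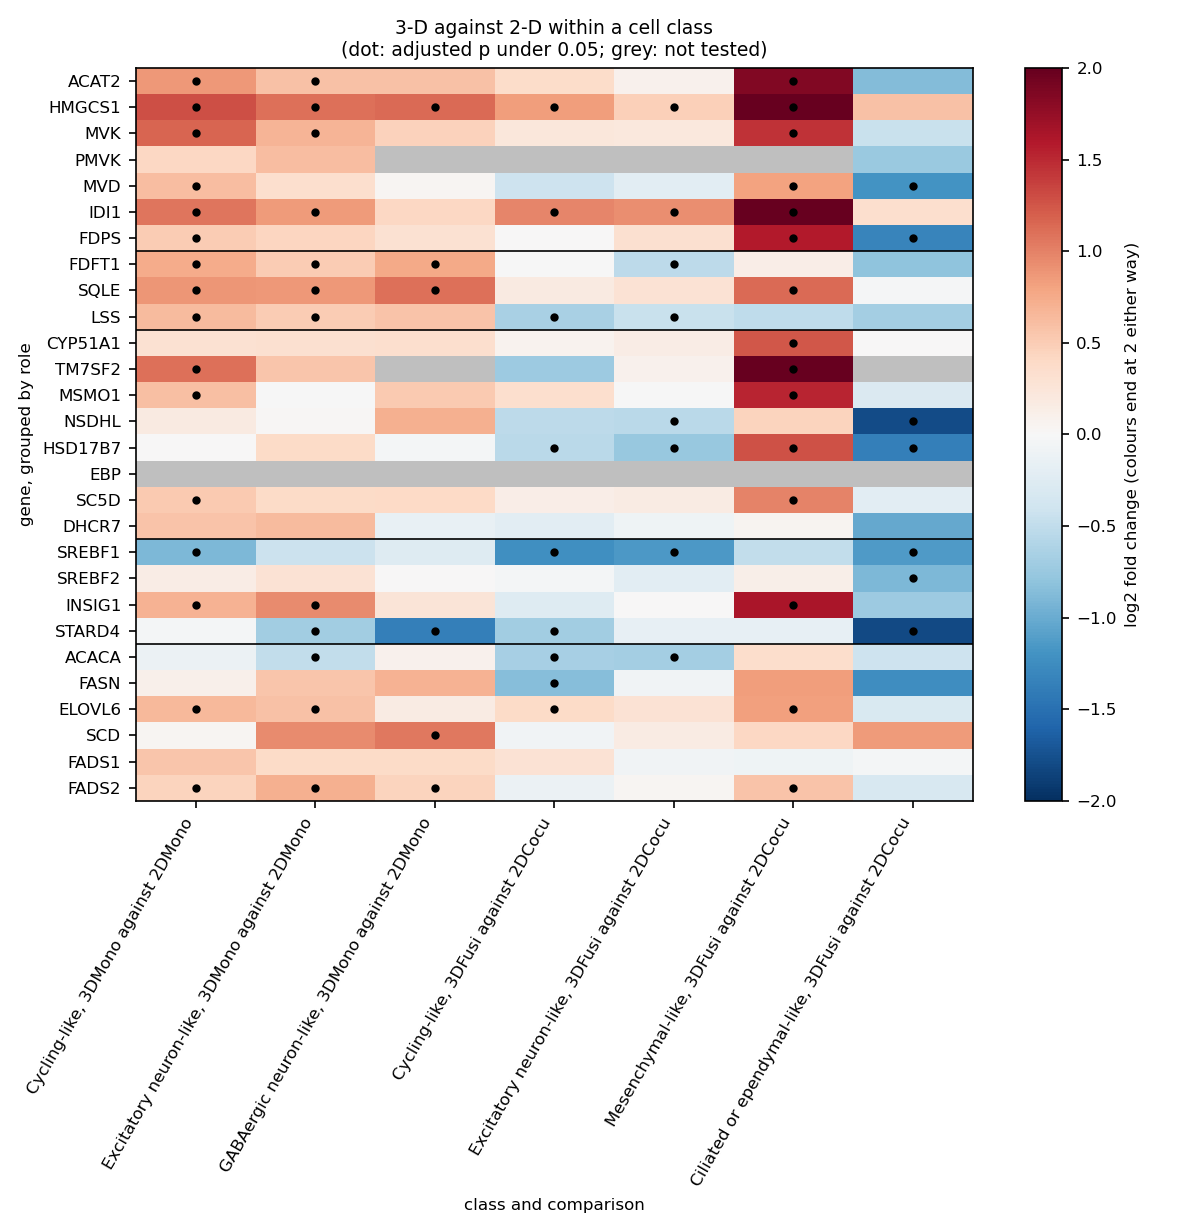
Log2 fold change of each member (rows, by role), 3-D over 2-D, within a named cell class (columns, 7 comparisons; colour scale ends at 2 either way; dot, adjusted p under 0.05; grey, not tested). HMGCS1 is red in every column, the upper rows are darkest in mesenchymal-like cells of 3DFusi, and SREBF1 is blue in every column.

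Over clusters, leaving out 3 of the 45 in which most cells were called doublets, the level of a member in pooled cells ranged 3.01-fold (FADS1) to 12.1-fold (ACAT2). These cluster levels are a description with no test. Cluster 43, which stayed unnamed, held 193 cells, 174 of them from 3DProto2Xia, 17 from 3DProto1For and 2 from 3DFusi, in 4 tags with up to 89 cells in 1 tag. Its leading genes include PTH2R, ADRA1B, MMD2 and IL33. It had the highest level of 15 members and the highest or next highest of 20. By role the 15 were 4 of 7 early mevalonate genes, all 3 squalene genes, 5 of 8 late sterol genes, SREBF2 and INSIG1, and 1 fatty acid gene, ACACA. HMGCS1 had 618 CPM there, 464 in progenitor-like cluster 7 and a median of 157 over the 42 clusters, INSIG1 had 100.1 against a median of 31.3, CYP51A1 175 against 47.6 and PMVK 20.1 against 5.35. The desaturase genes peaked elsewhere, SCD in cluster 0 (312 CPM), FADS1 in cluster 41 (31.7) and FADS2 in cluster 17 (222). ELOVL6 was highest in the GABAergic neuron-like clusters 3 (411 CPM) and 24 (304). The lowest mean levels of the members were in clusters 25, 26 and 20, of which the last is excitatory neuron-like and had the lowest levels of HMGCS1 (72.0 CPM), FDPS (9.54), SCD (40.1) and FADS2 (63.5).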

How the data were processed

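Single-cell RNA-seq of H1-derived neural cultures was read from 1 matrix of all cells, whose names give the sublibrary and the tag. The deposited values are expected counts per gene and cell, of which 54.3% of non-zero entries are whole numbers. The submitters' processing notes name Salmon 1.7.0, alevin, Seurat 4.1.1 and hg38, without their roles. No source used here gives the annotation, the strand setting or the authors' filters.

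For each tag, or each class within a tag, the expected counts of its cells were added up and rounded. Tests used edgeR 4.0.16 (R 4.3.3; TMM, filterByExpr, robust quasi-likelihood test) over all genes that passed the filter, with Benjamini-Hochberg adjusted p under 0.05. SE is the log2 fold change over the square root of F. Cells were clustered (leidenalg 0.10.2, Leiden resolution 0.8, 2000 variable genes, 30 principal components) without members and further lists. Clusters were named by a rule chosen after the clusters were seen, from marker lists. Simulated-doublet scores called 14.0% of cells doublets, which were kept and left out in an alternative. Classes needed 20 cells per tag, in at least 3 tags per arm or, against neurons, 4 tags. The tests were checked on simulated counts.

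Members and lists were chosen with earlier results of these data known. Named in format and class comparisons are the 5 called members with the largest differences in each direction and 10 standing genes (SREBF1, SREBF2, INSIG1, HMGCS1, SQLE, DHCR7, FASN, SCD, FADS1 and FADS2), in treatment comparisons the called members or the 2 with the smallest p, and up to 3 called genes per direction of each further list. Some genes of the further lists are not reported here. Tag numbers in 3DFusi were taken to pair the tags, since the deviations of all 9 same-numbered pairs correlated above 0.1 (0.138 to 0.566). Those of the 24 differently numbered pairs ran from -0.511 to 0.323. The main format, treatment and interaction fits and the class fits did not use this pairing. For the classes no fit with blocks by number or with summed tags was run. Alternatives were DESeq2 1.42.0, no TMM, no filter, blocks by number, 3DFusi tags of the same number summed, Vehic tags only, called doublets left out, limma on log2 of the mean CPM per cell plus 1, other clusterings, and each tag left out. Depth per tag limits low genes such as EBP.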

Additional observations from a re-analysis of the deposited data

Results flagged for a closer look

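In 9 of 196 gene and group combinations, over 7 groups of at least 4 tags, 1 tag lay far from the others by Dixon's test at the 95% level. Chance marks about 1 in 20. In Vehic tag 1 of 2DMono, which also stands apart in depth, HSD17B7 (17.97 CPM), SC5D (41.6 CPM) and DHCR7 (21.7 CPM) were far above the other tags. INSIG1 was high in 3DMono AcDop tag 1 (58.2 CPM), ELOVL6 in 3DMono AcMor tag 2 (296 CPM), HSD17B7 in 2DCocu AcMor tag 3 (26.4 CPM) and SCD in 3DFusi AcCoc tag 1 (157 CPM). TM7SF2 was low in 2DCocu AcCoc tag 2 (5.01 CPM) and EBP in 2DCocu Vehic tag 4 (0.905 CPM).

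The format difference itself differed between the 3DFusi and 3DMono pairs for 3 members by the interaction test: LSS (-0.88), FDFT1 (-0.82) and HSD17B7 (-0.80), each lower in the 3DFusi pair. That test treated the 3DFusi tags as independent and did not use their pairing by number.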

How the results depend on the processing

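The format differences of HMGCS1 and IDI1 kept their direction in the fits listed here. With Vehic tags only, 7 members passed in 3DMono against 2DMono (14.4% of all genes) and 8 in 3DFusi against 2DCocu (28.2%). With DESeq2 the counts were 18, 13 and 11 in the 3DMono, 3DFusi and Proto comparisons (40.2%, 51.1% and 26.7% of genes), with a replicate block 18 and 12 in the 3DMono and 3DFusi comparisons (39.8% and 46.6%), and without called doublets 16 and 12 (35.4% and 47%). Without TMM scaling the median of all genes in the 3DMono comparison moved from 0.03 to 0.22 and 20 members passed (44.4% of genes).

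For AcCoc in 2DCocu 9 members passed with DESeq2 (9.64% of genes), 2 without TMM scaling (4.87%) and 2 with tag number as a replicate block (4.15%), and 0 within each of clusters 0, 2, 4, 9, 15, 16 and 28, where fewer cells were summed. HMGCS1 turned to -0.0147 in cluster 2, IDI1 to -0.25 in cluster 28 and MSMO1 to -0.15 in cluster 15. In 2DCocu, 2DMono and 3DMono the tags share only a number, with correlations of -0.297 to 0.112, -0.130 to 0.118 and 0.062 to 0.237. The block changed no 3DFusi treatment call (0 members either way).

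Without the filter on low counts 1 member passed for AcDop (0.351% of genes) and 2 for AcMor (1.81%) in 3DMono, FASN in both and ELOVL6 for AcMor. For ciliated or ependymal-like cells, clustering at 1.2 gave 22 members in the format comparison (44.6% of genes), all lower, and 19 against neurons of 2DCocu (69.3%), where DESeq2 gave 2 (34.2%). The value of NSDHL, Cycling-like against neuron classes, 2DMono was -0.0627 at resolution 0.4 and -0.0684 at 1.2, and that of FDFT1, Intermediate progenitor-like against neuron classes, 3DMono was -0.0941 at 0.4. The causes of these changes were not tested.

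Leaving out each tag in turn gave 16 to 20 members in 3DMono against 2DMono (20 without 2DMono Vehic 1), 10 to 16 in 3DFusi against 2DCocu, 3 to 9 in the Proto comparison and 1 to 7 for AcCoc in 2DCocu. It gave 0 for AcMor in 2DCocu and for both treatments in 3DFusi. In 2DMono and 3DMono, with 2 tags per treatment, a left-out tag leaves 1 tag in its group. The spread then comes from the other groups, so these fits cannot show whether a treatment result is stable. In the class comparisons with few tags it gave 12 to 16 for choroid plexus-like cells of 3DMono, 4 to 5 for ciliated or ependymal-like cells of 2DCocu and 3 to 12 for their format comparison. The share of all genes called in each of these fits is not given here or where their counts appear above. A changed count may therefore follow a change over all genes. Counts per tag limit the members with few reads.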
